A study of Mus musculus with 6 samples.

Results

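Tendon cells were followed through 9 genes, Scx, Tnmd, Mkx, Thbs4, Angptl7, Chodl, Cilp2, Clec3b and Dpt, in the repair tissue of broken tibiae. They were taken as every probe set annotated to a single gene symbol among these 9. This gave 10 probe sets of 45037 tested, or 9 of 18193 genes with a probe set of their own, and no member was lost, since no filter on level was used. Scx has 2 probe sets and every other member has 1. The arrays compared Cyp24a1 (-/-) mice, which lack the enzyme that inactivates the vitamin D hormone, with Cyp24a1 (+/-) littermates, which still carry 1 disrupted allele and so are not wild type. All animals were on the C57BL6J x 129SV mixed background, aged 12 weeks, and had the tibia cut and held with an intramedullary rod, and callus was taken on day 14. Each genotype had 3 samples, each on 1 Affymetrix array, and the labels do not say how the callus was freed from the tissue around it. Nor do they say that each sample came from a different mouse, so the errors and p-values below measure the spread between these samples, which may be partly technical.

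Tendon is built by fibroblasts that lay down parallel collagen fibrils and join muscle to bone. Scx is the basic helix-loop-helix transcription factor that marks tendon progenitors, and Mkx is a homeobox factor that acts in tendon maturation. Tnmd, a membrane glycoprotein, is the classic marker of mature tendon cells and is lost from tendons of mice without Scx. The other members code mostly for secreted or matrix proteins, several of which fibroblasts outside tendon also make. In a long bone fracture, tendon, ligament, muscle and periosteum all lie close to the callus.

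On the log2 scale the medians of the arrays were 4.55 to 4.59, so the arrays were already on a common scale. A guide to background came from Xist and Y-linked transcripts on arrays that lacked them, whose 30 values ran from 1.77 to 3.52. Xist exceeded the Y-linked transcripts on 1 null and 1 heterozygous array and not on the others, so each genotype included samples of both sexes. The part of sex in the spread between samples was not tested. Genes of marrow neutrophils and red cell precursors were scarce in a single sample of each genotype. Relative to their averages over the arrays, the neutrophil genes had a mean of -2.92 in null replicate 1 and of -3.45 in heterozygous replicate 3, against 1.33 to 1.94 on the other 4. Muscle RNA was plentiful throughout, the skeletal actin gene Acta1 averaging 14.43 in null and 14.45 in heterozygous callus. All 16 muscle genes had a lower null mean, by -0.93 (Myh7, SE 1.51) to -0.01 with a median of -0.07, which was -0.18 without null replicate 3 and turned to 0.03 without null replicate 1. For 9 of the 10 tendon probe sets every array exceeded 3.52, and these cover all 9 genes. Because the guide comes from other probe sets, exceeding it does not by itself show that a transcript was present. Mkx averaged 4.45 over the arrays, under the median of 4.58 over all probe sets. Array values of different probe sets are not on a common scale. Apart from these guides, levels are compared here between samples and not between genes.

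No tendon gene passed the test between the genotypes, and in every one the samples of the groups overlapped. Of the 9 genes, 8 had a higher mean in null callus and Scx had a lower one, and the median difference over the 10 probe sets was 0.28 on the log2 scale, against -0.0081 over all probe sets. In limma's test 0 of the 10 passed an adjusted p of 0.05, as did 0% of all probe sets, and their adjusted p was 0.999 in each case. At an unadjusted p under 0.05 there were 0 members as well, where 3.69% of all probe sets reached it. In 0 of the 10 did the 3 null values all lie above the heterozygous ones, which 3.57% of all probe sets did, and in 0 did they all lie below, against 5.38%. Callus is a mixed tissue, and several members are also made outside tendon. Differences, in either direction, in tendon cell number, in RNA per tendon cell and in transcripts from other cells cannot be told apart.

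**Figure D1:**
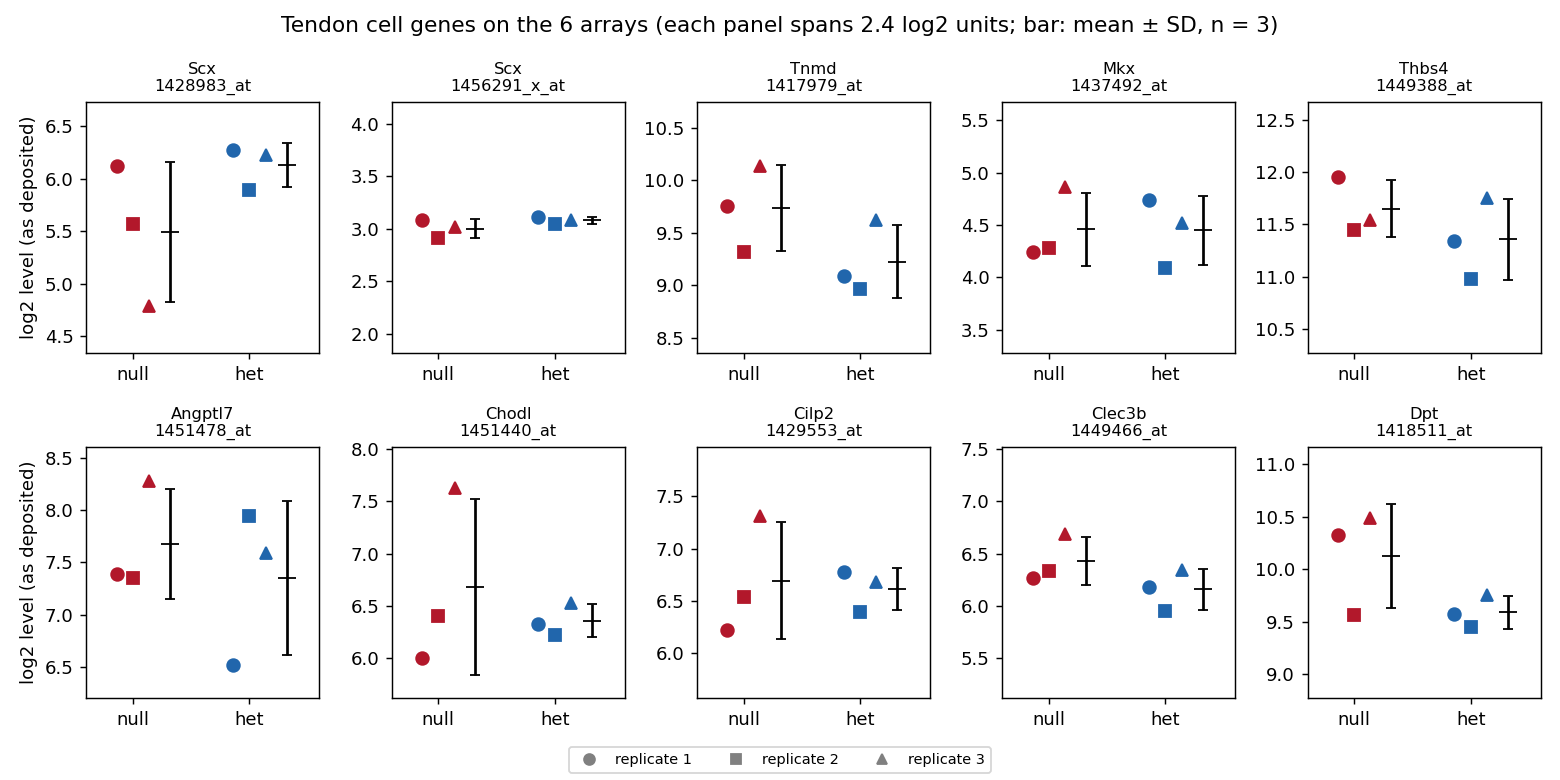
Log2 level of each tendon probe set in each sample (y axis, as deposited) by genotype (x axis; red null, blue heterozygous; the shape gives the replicate; black bars are mean ± SD, n = 3). The groups overlap in all 10 panels, and null replicate 3 (red triangle) is the highest sample for 7 of the 9 genes and the lowest for Scx.

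Scx, the progenitor factor, was the member that went against the rest. On probe set 1428983_at it was at 6.12, 5.56 and 4.79 in null replicates 1, 2 and 3 and at 6.28, 5.89 and 6.23 in heterozygous replicates 1, 2 and 3. The heterozygous samples lay close together, while the null samples spread downward, and null replicate 1 fell inside the heterozygous range. The null mean was 5.49 ± 0.67 (SD, n = 3) and the heterozygous mean 6.13 ± 0.21 (SD, n = 3). They differed by -0.64 (SE 0.33), or 1.56-fold lower in null. The 95% interval, -1.43 to 0.15, included no change. An exact two-sided permutation test gave p = 0.2, where 3 against 3 samples cannot go below 0.1. The difference was -0.29 without null replicate 3 and -0.96 without null replicate 1.

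The other Scx probe set, 1456291_x_at, lay between 2.91 and 3.11 on all 6 arrays, under the highest background value. Its type name marks it as one whose probes can also bind other transcripts, so its values say little about Scx. In the RefSeq gene table (GRCm38.p6) Scx overlaps Bop1, a ribosome biogenesis gene. Bop1 probe set 1423264_at was at 8.18, 7.80 and 7.50 in the null samples against 8.21, 8.03 and 8.18 in the heterozygous samples, lowest in null replicate 3 as Scx was. Its difference was -0.31 (SE 0.18), and its part in the Scx value was not tested.

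Mkx, the second transcription factor, showed almost no difference in means. Its values were 4.24, 4.28 and 4.86 in the null samples against 4.74, 4.09 and 4.52 in the heterozygous samples, so the samples of both genotypes covered much the same range. The difference was 0.01 (SE 0.23), with a 95% interval from -0.55 to 0.58. A level up to 1.49-fold higher in null callus lies within that interval. The sign turned without null replicate 3 (-0.19), without heterozygous replicate 2 (-0.17) and with the arrays centred on their medians (-0.0045).

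Tnmd, the marker of mature tendon cells, had a higher mean in null callus. It was at 9.75, 9.31 and 10.14 in the null samples against 9.09, 8.96 and 9.62 in the heterozygous samples. The highest values were those of null replicates 3 and 1, but heterozygous replicate 3 lay above null replicate 2. The null mean was 9.73 ± 0.41 (SD, n = 3) and the heterozygous mean 9.23 ± 0.35 (SD, n = 3). They differed by 0.51 (SE 0.26), or 1.42-fold, with a 95% interval from -0.12 to 1.14. An exact two-sided permutation test gave p = 0.2. Leaving out single samples gave 0.31 (without null replicate 3) to 0.72 (without null replicate 2), always higher in null.

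Dpt, which codes for dermatopontin, a small protein that binds decorin and collagen, was the member with the lowest unadjusted p in limma's fit (0.0743; adjusted p = 0.999). It was at 10.33, 9.56 and 10.49 in the null samples against 9.57, 9.44 and 9.76 in the heterozygous samples. Null replicates 1 and 3 stood above all heterozygous samples, while null replicate 2 lay among them. Averages were 10.13 ± 0.50 (SD, n = 3) for null and 9.59 ± 0.16 (SD, n = 3) for heterozygous callus. They lay 0.54 (SE 0.25) apart, or 1.45-fold, with a 95% interval from -0.07 to 1.14. The difference was 0.82 (SE 0.15) without null replicate 2, still short of the adjusted threshold (limma adjusted p = 0.965), and 0.36 without null replicate 3. Dermatopontin is also made in skin, and 11 of 12 measured epidermal genes had a higher mean in null callus, with a median difference of 1.27. Their summed level on the linear scale ran from 1148 to 3571 in null and from 414.5 to 1684 in heterozygous samples, and 11 of the 12 lay above the background guide on average. Relative to its average over the arrays, the epidermal list stood at 1.10, 0.82 and -0.15 in null replicates 1, 2 and 3, where Dpt stood at 0.47, -0.30 and 0.63 from its own mean. In heterozygous replicates 1, 2 and 3 the list stood at -1.58, 0.53 and -0.72 and Dpt at -0.29, -0.41 and -0.10. The part of skin in the Dpt value was not tested.

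Tnmd and Dpt had the most alike profiles of the 36 pairs of members. Likeness was taken as the root mean square difference over the 6 arrays after each gene's own mean was removed, and it was 0.15 for this pair on the log2 scale. Since they moved together across samples, the 250 bases before their RefSeq start sites are shown, read from the GRCm38.p6 promoter table. The motif searched was the E-box CANNTG, the class of site that basic helix-loop-helix factors such as Scx bind. It reads the same on both strands, and capitals mark each match.
Tnmd, chrX:133850758-133851007, plus strand: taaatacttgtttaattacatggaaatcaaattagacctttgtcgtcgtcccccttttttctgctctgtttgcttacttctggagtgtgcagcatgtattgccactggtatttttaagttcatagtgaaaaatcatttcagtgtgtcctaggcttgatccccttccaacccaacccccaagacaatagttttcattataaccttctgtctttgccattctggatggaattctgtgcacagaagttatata
Dpt, chr1:164796413-164796662, plus strand: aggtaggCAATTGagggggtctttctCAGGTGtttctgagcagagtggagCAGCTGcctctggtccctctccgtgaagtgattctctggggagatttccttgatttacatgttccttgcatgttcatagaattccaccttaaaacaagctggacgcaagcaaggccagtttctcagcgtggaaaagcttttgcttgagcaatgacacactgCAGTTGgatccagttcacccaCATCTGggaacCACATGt
The Dpt window holds 6 matches and the Tnmd window 0. The window lies at 38.4% G and C for Tnmd and 48.8% for Dpt. Among all 32851 windows of this length that RefSeq lists there, 66.2% hold at least 1 match. The table has no window for Scx and Clec3b, and that of Mkx was left out of the member counts but not of the 32851. Windows of the other 6 members were counted, and 5 of these hold a match. Dpt has 6, Chodl 4, Angptl7 3, and Thbs4 and Cilp2 1 each. The narrower form CATCTG, or CAGATG on the other strand, is contained in the E-box and occurs in 3 of the 6 (Dpt, Angptl7 and Chodl), against 14.4% of all windows. These are matches of letters only, and no binding was measured.

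Thbs4 codes for thrombospondin-4, a matrix protein of tendon and muscle that binds collagen. It was at 11.96, 11.45 and 11.54 in the null samples against 11.34, 10.98 and 11.75 in the heterozygous samples. Here null replicate 1 was the highest sample and heterozygous replicate 2 the lowest, with the rest interleaved. The difference was 0.29 (SE 0.23), or 1.23-fold, with a 95% interval from -0.26 to 0.85. Leaving out null replicate 1 gave 0.14, while leaving out heterozygous replicate 2 gave 0.11 and heterozygous replicate 3 gave 0.49.

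Cilp2, a cartilage intermediate layer protein found in joint and tendon matrix, was at 6.23, 6.54 and 7.31 in the null samples against 6.77, 6.39 and 6.68 in the heterozygous samples. Null replicate 3 was the highest sample and null replicate 1 the lowest, so the null samples lay on both sides of the heterozygous ones. The difference was 0.08 (SE 0.28), and it turned to -0.23 without null replicate 3 and to -0.03 without heterozygous replicate 2.

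Angptl7, a secreted angiopoietin-like protein, was at 7.39, 7.35 and 8.28 in the null samples against 6.53, 7.94 and 7.59 in the heterozygous samples. The lowest sample was heterozygous replicate 1 and the highest null replicate 3, and the difference of 0.32 (SE 0.42) turned to -0.09 without the former and became 0.021 without the latter. Clec3b, which codes for the secreted plasminogen-binding protein tetranectin, was at 6.27, 6.34 and 6.69 in the null samples against 6.18, 5.95 and 6.34 in the heterozygous samples. The groups overlapped through heterozygous replicate 3, which lay level with null replicate 2 and above null replicate 1. The difference was 0.27 (SE 0.16), with a 95% interval from -0.12 to 0.66. Leaving out null replicate 3 gave 0.14, heterozygous replicate 2 gave 0.17 and both samples low in marrow genes gave 0.45. Chodl codes for chondrolectin, a membrane protein with a lectin domain. It was at 6.01, 6.41 and 7.63 in the null samples against 6.33, 6.22 and 6.53 in the heterozygous samples. A single sample, null replicate 3, stood 1.10 above the next highest, and the difference of 0.32 (SE 0.40) turned to -0.15 without it.

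**Figure D2:**
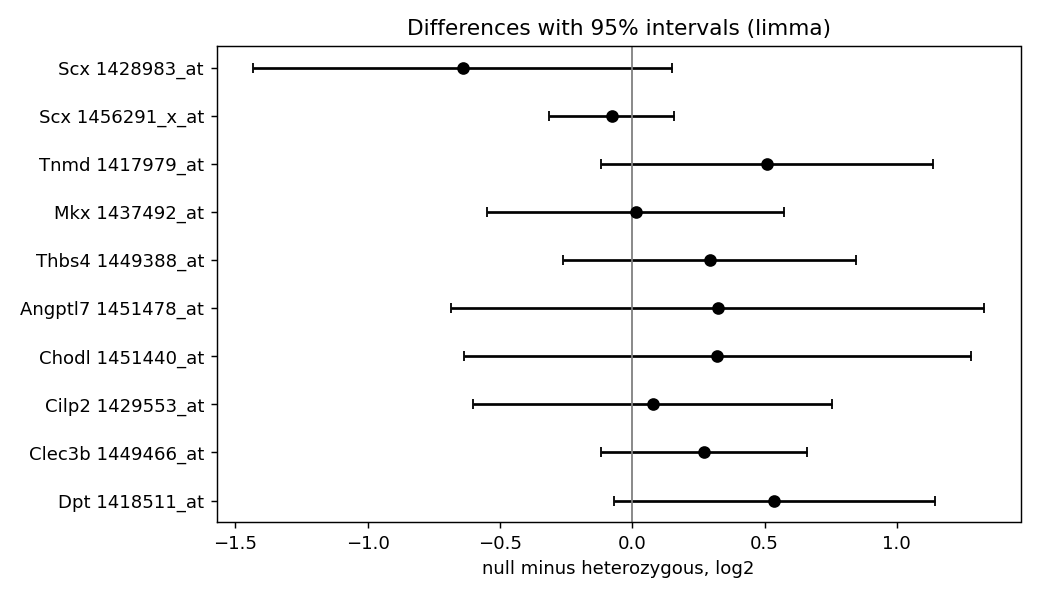
Null minus heterozygous difference on the log2 scale (x axis) for each tendon probe set (y axis), with limma's 95% interval from 3 against 3 samples. All 10 intervals include 0, and the differences run from -0.64 (Scx) to 0.54 (Dpt).

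Single arrays stood out across the members. Null replicate 3 was the highest of the 6 arrays for Tnmd, Mkx, Angptl7, Chodl, Cilp2, Clec3b and Dpt, 7 of the 9, and the lowest for Scx, while over all 18193 genes it was the highest array for 13.4% and the lowest for 15.6%. Relative to each gene's own mean, its values ranged from -1.02 (Scx) to 1.11 (Chodl), with a mean of 0.40 over the 9 genes. Heterozygous replicate 2 was the lowest array for Tnmd, Mkx, Thbs4, Clec3b and Dpt, 5 of the 9, where it was lowest for 17.6% of all genes. Null replicates 1 and 2 averaged 0.02 and -0.14 over the 9 genes, which put null replicate 2 level with heterozygous replicate 1 at -0.14. Heterozygous replicate 3 averaged 0.10, above both of these null replicates. It lay above the gene's own mean for 8 of the 9, the same count as null replicate 3.

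**Figure D3:**
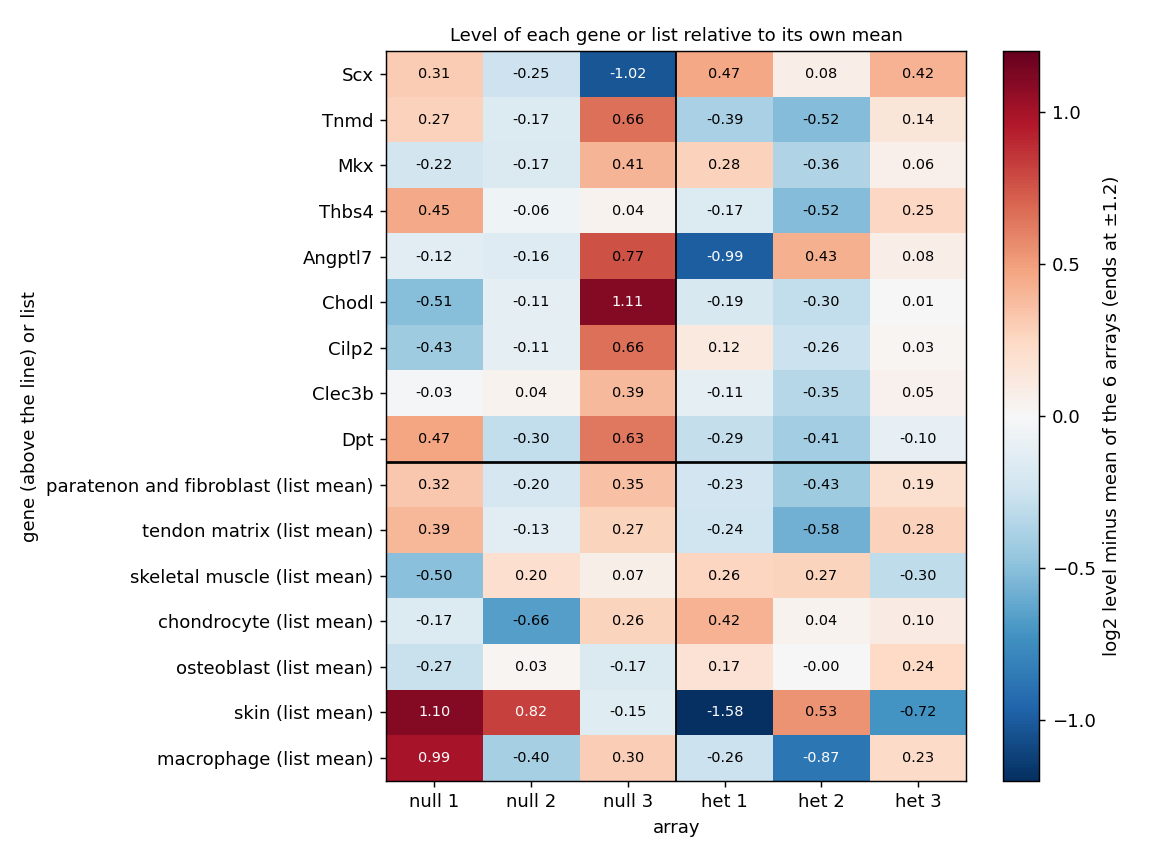
Log2 level of each tendon gene on each array (columns) minus the gene's mean over the 6 arrays, with the same for the mean of 7 gene lists under the line; red is above and blue below the mean. The null 3 column is red for 8 of the 9 genes and blue for Scx at -1.02, while the fibroblast list has 0.32 and 0.35 on null replicates 1 and 3.

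The excess of members with a higher null mean depended on that sample. Without null replicate 3, 5 of 9 genes were higher and the median difference of the 9 went from 0.29 to 0.021, and over the 10 probe sets it turned to -0.03. Without heterozygous replicate 2 the count was 6 of 9 and the median 0.17. Leaving out both samples low in marrow genes gave 8 of 9 and a median of 0.45, with Scx at -0.91, Tnmd at 0.70 and Chodl at 0.74.

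**Figure D4:**
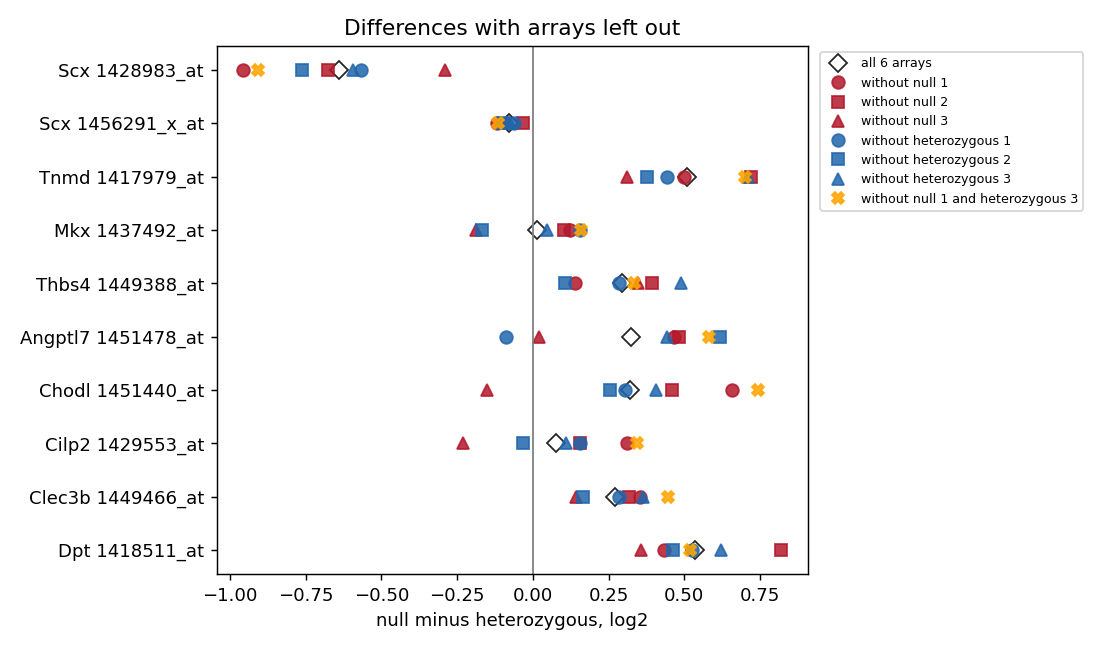
Null minus heterozygous difference on the log2 scale (x axis) for each tendon probe set (y axis), with all 6 arrays (open diamond), with 1 array left out (red null, blue heterozygous; shape gives the replicate) and without both marrow-poor arrays (orange cross). Scx at 1428983_at lies below 0 and Tnmd, Thbs4, Clec3b and Dpt above 0 in all 8 settings shown, whereas Mkx, Angptl7, Chodl and Cilp2 cross it.

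For each member above the median level, the 5 genes with the most alike profile were sought among 11482 others. Dpt was closest to Thbs3, a thrombospondin (root mean square difference 0.041), followed by Medag, Dip2a, the matrix gene Ecm1 and Pdgfra, the receptor that marks mesenchymal cells (0.11). Tnmd was closest to Antxr1 (0.061), with Rnase4, the laminin chain gene Lamc1, Poglut3 and Antxr2 next, and Antxr1 and Antxr2 code for related receptors for collagen. Chodl was closest to Tnxb, the tenascin-X gene of connective tissue (0.17), and then to Scara5, Itih5, Abca8a and Sult1a1.

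Scx had other neighbours. The nearest were Stbd1, a glycogen-binding protein gene (0.098), and Chrnd, the delta subunit of the muscle acetylcholine receptor (0.11), followed by Ece2, Nav2 and Ttll12. Chrnd was at 6.99, 6.40 and 5.65 in the null samples against 7.04, 6.99 and 7.22 in the heterozygous samples, with null replicate 3 lowest as for Scx. Scx and Tnmd differed by 0.82, and Scx took part in the 7 least alike pairs of members, up to 0.997 with Chodl. The other members gave no common theme: Angptl7 was nearest to the Wnt inhibitor gene Dkk2 (0.12), Cilp2 to Olfml2a (0.097), Thbs4 to Arf4 (0.033) and Clec3b to Rbm26 (0.026). With only 6 arrays, many genes lie near any profile, so these values describe the samples.

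Against lists of cell types, Tnmd, Dpt and Thbs4 lay closest to connective tissue lists, and the other members did not. The mean profile of 22 measured paratenon and fibroblast genes was the nearest of 15 lists to Tnmd (0.15, where a flat profile lies at 0.40) and to Dpt (0.18, flat at 0.40). The tendon matrix list was the nearest to Thbs4 (0.11, flat at 0.31). Scx was nearest to the osteoblast list, but at 0.46 it lay almost as far from it as from a flat profile (0.52). For Angptl7, Chodl, Cilp2 and Mkx the nearest lists were also distant, from 0.23 to 0.42. That of Angptl7 was smooth muscle and pericyte, and those of Chodl, Cilp2 and Mkx were endothelial. Clec3b lay nearest to the endothelial list as well (0.067, flat at 0.22).

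The rest of the tendon programme was counted on 1 probe set per gene, beside 49.7% of all genes with a higher null mean and an overall median of -0.0017. No gene of these lists passed limma's adjusted test, so the counts describe means. Among matrix genes of tendon, 24 of 25 were higher in null callus, with a median of 0.38, and 3 of them reached an unadjusted p under 0.05, where 2.06% of all genes did so on the higher side. These were Prg4, the joint and sheath lubricant lubricin (0.68, SE 0.19), the small leucine-rich proteoglycan Prelp (0.42, SE 0.11) and the fibril-associated collagen Col12a1 (0.96, SE 0.33). In Prg4 and Prelp all null samples lay above the heterozygous ones, while in Col12a1 null replicate 2 lay just under heterozygous replicate 3. Prg4 was at 9.72, 9.39 and 9.85 in the null samples against 9.16, 9.10 and 8.66 in the heterozygous samples. Fmod, fibromodulin, followed at 0.42 (SE 0.19), again with no overlap. The exception was Col11a1 at -0.20, and the main tendon collagen gene Col1a1 differed by 0.03 (SE 0.21). Dropping null replicate 1 brought the median to 0.20, and dropping heterozygous replicate 2 to 0.14. Several of these genes are equally genes of bone, cartilage and scar, and the osteoblast list had 8 of 10 genes lower in null callus (median -0.31; -0.20 without null replicate 3) and the chondrocyte list 11 of 15 (median -0.21). Of the 15 chondrocyte genes, 11 lay above the background guide on average, and these are not the same 11 as those lower in null callus. The chondrocyte median became -0.39 if null replicate 1 was dropped, -0.04 if null replicate 2 was and -0.11 if heterozygous replicate 1 was. Endothelial genes were higher in null samples for 9 of 10 (median 0.23) and smooth muscle and pericyte genes for 8 of 10 (median 0.23). The endothelial median became 0.14 if heterozygous replicate 2 was dropped, 0.42 if heterozygous replicate 3 was and 0.46 if both samples low in marrow genes were. That of smooth muscle became 0.13 if heterozygous replicate 1 was dropped, 0.39 if heterozygous replicate 3 was and 0.38 if both marrow-poor samples were. The part of these cell types in the tendon values was not tested. Of the genes with several probe sets named here, 1 of 4 for Col12a1 and 1 of 2 for Col1a1 pointed the other way.

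Paratenon and fibroblast genes were higher in null samples for 19 of 22, the median being 0.32. Tppp3, which marks cells of the tendon sheath, was at 7.64, 7.84 and 8.53 in the null samples against 7.08, 6.97 and 7.14 in the heterozygous samples. All null samples lay above all heterozygous ones, and the difference was 0.94 (SE 0.23), or 1.92-fold, with a limma unadjusted p of 0.00588 and an adjusted p of 0.999. Dpp4, Cd34 and Fbln2 came next at 0.47 (SE 0.27), 0.43 (SE 0.29) and 0.45 (SE 0.31), and their groups overlapped, with 1 of 4 probe sets of Dpp4 pointing the other way. Leaving out null replicate 1, 2 or 3 gave list medians of 0.17, 0.53 and 0.18, and leaving out heterozygous replicate 3 gave 0.59. Macrophage genes also had higher null means, all 13 of them, with a summed linear level of 11810 to 25580 in null and 8190 to 17650 in heterozygous samples, and their part in these values was not tested.

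**Figure D5:**
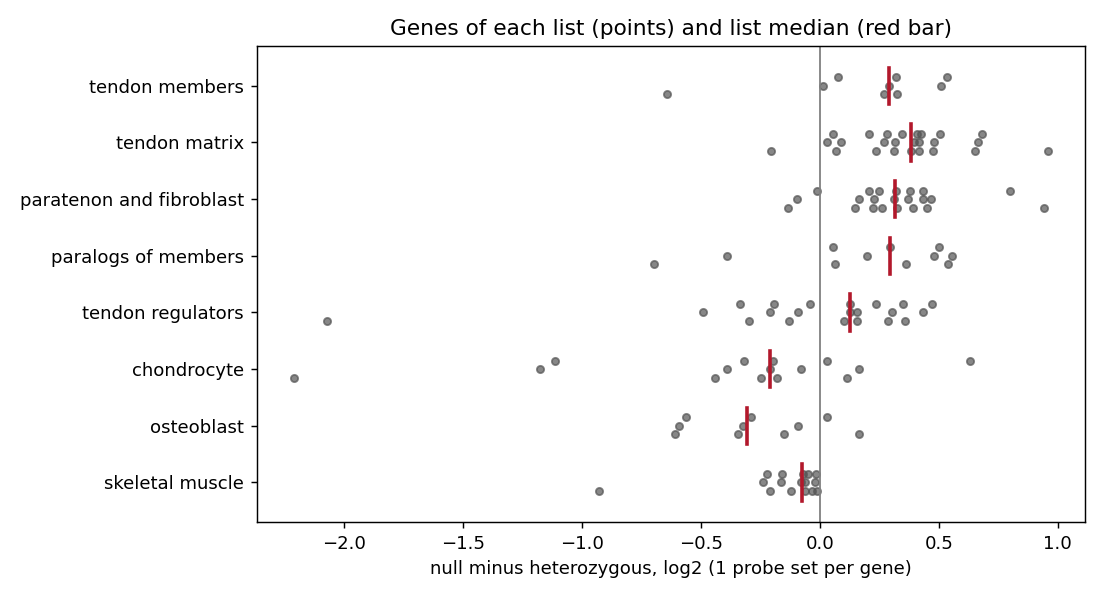
Null minus heterozygous difference on the log2 scale (x axis) of each gene (points, 1 probe set per gene) in 8 lists (y axis), with the list median as a red bar. The tendon, tendon matrix, fibroblast and paralog lists have medians from 0.29 to 0.38, and the chondrocyte and osteoblast medians are -0.21 and -0.31. Of lists not drawn, the skin, macrophage, neutrophil, endothelial, smooth muscle and adipocyte medians are 1.27, 0.53, 0.25, 0.23, 0.23 and 0.18. Those of the nerve and erythroid lists, also not drawn, are 0.00047 and -0.26.

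Regulators of tendon formation were divided, with 12 of 21 measured genes higher and 9 lower in null callus and a median of 0.13. On the lower side 2 reached an unadjusted p under 0.05, where 2.43% of all genes did. Gdf5, a growth factor of joint and tendon progenitors, was at 4.25, 6.22 and 3.95 in the null samples against 7.74, 6.90 and 5.98 in the heterozygous samples. The groups overlapped through null replicate 2 and heterozygous replicate 3, and the difference was -2.07 (SE 0.69), with a limma unadjusted p of 0.022 and an adjusted p of 0.999. Tgfbr1, a receptor for transforming growth factor beta, differed by -0.33 (SE 0.13) with no overlap, and Smad3, a mediator of the same signal, by -0.49 (SE 0.22). Eya2, a transcriptional cofactor, differed by 0.35 (SE 0.17). This median moved to -0.0057 if null replicate 2 was dropped, to 0.065 if heterozygous replicate 1 was and to -0.05 if heterozygous replicate 3 was.

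Close relatives of the members gave a similar picture, with 9 of 11 measured paralogs higher and a median of 0.30. Cilp, the relative of Cilp2, differed by 0.30 (SE 0.23), and Thbs3 and Thbs2 by 0.54 (SE 0.27) and 0.56 (SE 0.35), where Thbs4 had 0.29. Comp, the cartilage thrombospondin, differed by 0.05 (SE 0.25). Angptl6 went the other way from Angptl7. It was at 5.68, 5.38 and 5.61 in the null samples against 6.19, 6.66 and 5.92 in the heterozygous samples, with no overlap, a difference of -0.70 (SE 0.21) and a limma adjusted p of 0.999. Angptl1 differed by 0.48 (SE 0.29) and Angptl4 by 0.50 (SE 0.39). Cnmd, the chondromodulin gene related to Tnmd and typical of cartilage, differed by -0.39 (SE 0.36), opposite in sign to Tnmd. Its values were low, averaging 3.69 over the arrays. Null replicate 2 (2.84) and heterozygous replicate 3 (3.47) lay under the highest background value of 3.52, so the contrast in sign says little. For the paralogs the median became 0.19 if null replicate 2 was dropped, 0.092 if heterozygous replicate 2 was, 0.48 if heterozygous replicate 3 was and 0.46 if both samples low in marrow genes were.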

How the data were processed

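The deposited table holds 1 value per probe set of an Affymetrix mouse expression array and sample. Ranging from 1.65 to 14.49, these deposited values were read as log2. Which software, background correction and normalization made them is not stated in the labels or the file. After 64 control probe sets were left out, each of 45037 probe sets was tested on the log2 values by limma (version 3.58.1, under R 4.3.3; moderated, two-sided, null minus heterozygous, no covariate), with Benjamini-Hochberg adjustment over all of them. Intervals at 95% use the moderated error. The fit was tested on simulated data. Lists use the probe set with the highest mean of each gene. In each list up to 4 genes with the lowest unadjusted p were eligible to be named. Beside these, the rule named all members, the gene of each list with the highest mean and, for members above the median level, the 5 genes with the nearest profiles. Bop1 and Mtor were named for their overlap with a member. Col11a1, Comp, Cnmd, Angptl4 and Myh7 were named after their values were seen, as was the background guide from Xist and Y-linked transcripts. The members and lists were chosen with earlier results of these data known. Alternatives were other normalizations, array weights, an intensity trend, a level filter, 1 probe set per gene, a marrow score as a covariate and leaving out samples. The number of arrays limits the precision.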

Additional observations from a re-analysis of the deposited data

How the results depend on the processing

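Across 15 other settings, 0 tendon probe sets passed limma's adjusted threshold in any, and over all probe sets 0 passed except 1 with the marrow score as a covariate. Scx, Tnmd, Thbs4, Clec3b and Dpt kept their direction in every setting run on them. Scx at 1428983_at ran from -1.001 to -0.29, Tnmd from 0.31 to 0.72, Thbs4 from 0.11 to 0.49, Clec3b from 0.14 to 0.45 and Dpt from 0.36 to 0.82. The sign turned for Mkx without null replicate 3 (-0.19), without heterozygous replicate 2 (-0.17) and with arrays centred on their medians (-0.0045), for Cilp2 without null replicate 3 (-0.23) and without heterozygous replicate 2 (-0.03), for Chodl without null replicate 3 (-0.15) and for Angptl7 without heterozygous replicate 1 (-0.090). Leaving out single samples gave Mkx -0.19 to 0.16, Cilp2 -0.23 to 0.31, Chodl -0.15 to 0.66 and Angptl7 -0.090 to 0.62. The cause was not tested. With array weights, 4 members reached an unadjusted p under 0.05, with a lowest adjusted p of 0.462, and 4631 of all probe sets did so, against 1660 without weights. Leave-one-out medians of the 10 probe sets ran from -0.03 to 0.38. The median of all probe sets was -0.025 to 0.0039 under the other scalings. Pseudocounts do not apply to log2 values. No paired analysis was possible because the labels give no replicate numbers shared by the groups.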
